A study of Carassius auratus with 6 samples.

Results

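The HoxB genes of the golden-back crucian carp (GBCrC, Carassius auratus) were followed in its skin, where golden (GO) and greenish grey (GR) areas occur. They were all rows of the deposited gene table whose product was named homeobox protein Hox-B with a group number from 1 to 10, which gave 29 of 83088 rows under 14 labels. The rows were picked by name, but with colour differences in these libraries already known, so the comparison of colours is given for them as a description. Messenger RNA was sequenced in 6 libraries of skin from female fish, 3 from golden and 3 from greenish grey skin, each numbered 1 to 3. The golden colour is a natural mutation that lies on the back of this fish. The methods describe 8-month-old females for the small RNA libraries, with skin of both colours taken from 3 fish, but do not say whether the mRNA came from the same fish. For the mRNA libraries the labels gave neither the age of the fish, nor the place on the body from which each piece of skin was cut, nor whether 1 fish gave skin of both colours, so that the spread between libraries may be technical in part. The paper describes the golden skin as lying in certain regions along the back, so colour goes with position in this fish. The place of each piece was also not given. Skin colour and position on the body thus cannot be told apart in these libraries.

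Hox genes encode homeodomain transcription factors that give cells their position along the body axis from head to tail. They stand in clusters whose order follows their group number, with low groups active toward the head and high groups toward the tail, and in human skin the fibroblasts of adults keep a Hox pattern that reflects the place they came from. Teleost fishes hold a hoxba and a hoxbb cluster from an old duplication of the genome. The goldfish lineage, to which the crucian carp belongs, went through another one, so that each cluster is present in duplicate.

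The libraries held from 51493103 to 67595616 counts. Skin markers were present in each of them: genes of the epidermis list took between 0.455% and 2.86% of the counts, and those of the dermal fibroblast list between 0.236% and 1.28%. Skeletal muscle genes took between 2.35% and 17.1%, with the highest share in library 1 of each colour. edgeR tested 26421 genes and called 0 of them at an adjusted p under 0.05 (0.0%) and 1163 (4.4%) at an unadjusted one, while DESeq2 called 205 (0.776%) at the adjusted threshold.

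To see how the HoxB genes lie in the genome, the rows were ordered by their start on the assembly ASM336829v1. A hoxba cluster of 10 genes stood on chromosome 3 (chr3:5149431-5250514, 101.1 kb) and its duplicate of 10 genes on chromosome 28 (chr28:9252114-9352407, 100.3 kb), each with 1 copy of hoxb10a, hoxb9a, hoxb8a, hoxb7a, hoxb6a, hoxb5a, hoxb4a, hoxb3a, hoxb2a and hoxb1 on the plus strand. A hoxbb cluster of 4 genes (hoxb8b, hoxb6b, hoxb5b and hoxb1b) stood on chromosome 12 (chr12:3659776-3684453) and its duplicate on chromosome 37 (chr37:10955211-10979428). The remaining row, a hoxb5b-like gene, stood alone on chromosome 24 (chr24:13026124-13029776). All 29 rows were annotated as protein coding. The nearest Hox genes that the group limit left out, the hoxb13a rows upstream of both hoxba clusters, had no count in any library.

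Some gene models overlapped. The model of hoxb3a on chromosome 3 had 9 transcripts and spanned 50.7 kb, with hoxb6a, hoxb5a and hoxb4a inside it. On chromosomes 12 and 37 the model of hoxb1b contained hoxb5b and hoxb6b. The use of strand and of reads shared by near-identical copies was not given in the sources used here, so the division of reads among these genes, and between the duplicated copies, is uncertain.

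Of the 29 HoxB genes, 26 had a count in at least 1 library. The 3 without any count were the hoxb5b rows on chromosomes 12, 24 and 37. FPKM (fragments per kilobase of transcript, scaled to the size of the library) takes account of length and was used to compare levels between genes. hoxb7a, a trunk gene of the middle of the cluster, had the highest FPKM of its cluster in 12 of 12 combinations of hoxba cluster and library, at 1.21 to 3.57 times the next gene. hoxb9a came next in 8 of these 12. Both copies of hoxb7a together made up 37.9% ± 4.75 (SD, n = 6) of the summed HoxB FPKM. The mean FPKM over the 6 libraries ran from 0.0755 for hoxb1 to 6.37 for hoxb7a on chromosome 3, and from 0.0519 for hoxb1 to 6.17 for hoxb7a on chromosome 28.

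**Figure D1:**
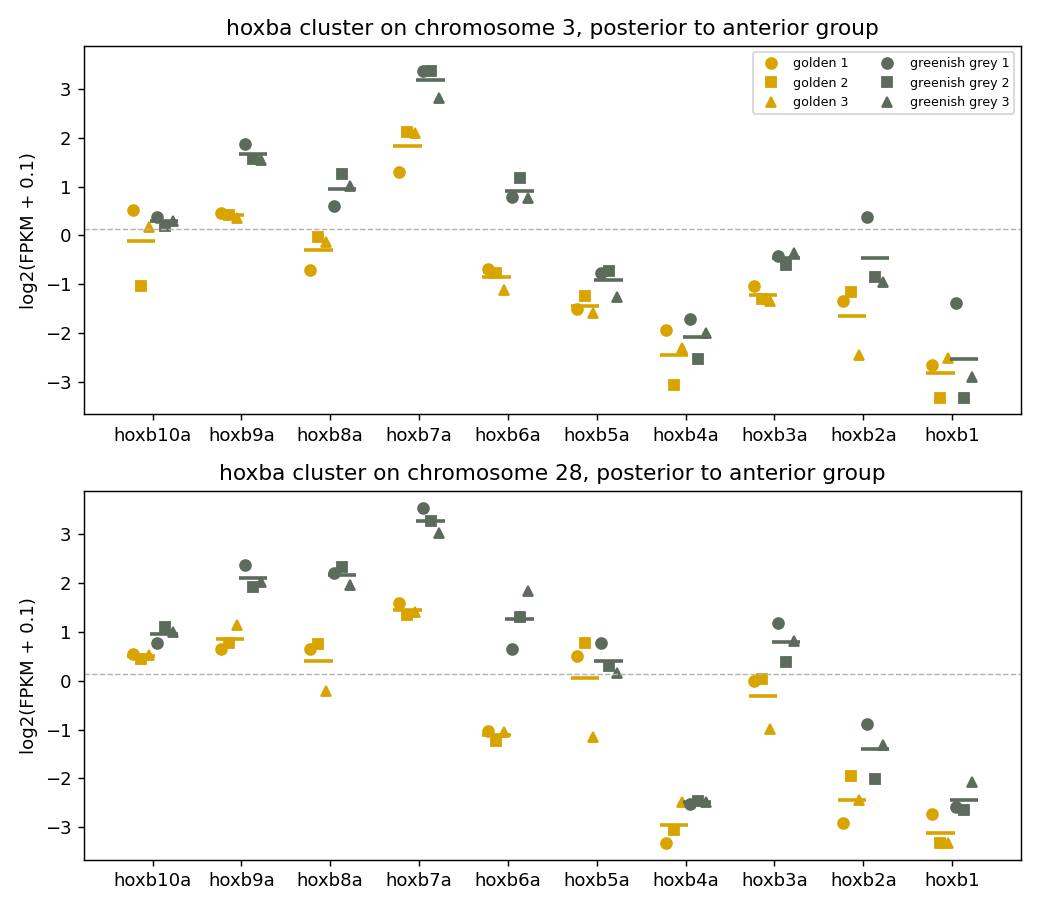
Level of each hoxba gene as log2(FPKM + 0.1) in each library, from group 10 on the left to group 1 on the right, on chromosome 3 (upper) and chromosome 28 (lower). Points are single libraries, short lines are means of the log2 values of 3 libraries per colour, and the dashed line marks 1 FPKM. In both clusters hoxb7a stands highest in every library, and the golden points of hoxb6a to hoxb9a lie below all greenish grey points.

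The summed level of the HoxB genes was lower in golden skin. It was 17.5, 18.6 and 16.9 FPKM in golden libraries 1 to 3 and 51.0, 46.8 and 41.5 FPKM in greenish grey libraries 1 to 3, with means of 17.7 ± 0.860 (SD, n = 3) and 46.4 ± 4.78 (SD, n = 3), a 2.63-fold difference of the means. The 3 golden sums lay close together and all below the greenish grey ones. In bulk skin, fewer cells that express these genes and less RNA per cell cannot be told apart. Summed counts were 2781, 2922 and 3479 in golden and 7074, 7747 and 7532 in greenish grey libraries. HoxB genes made up 15.1% to 19.5% of the FPKM of all Hox genes of groups 1 to 10 in golden skin and 28.7% to 37.7% in greenish grey skin. A hoxa3-like row that varied widely within both colours, described below with the other Hox clusters, was part of that total.

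To compare the colours gene by gene, the counts were tested with edgeR's quasi-likelihood test over all genes that averaged 1 FPKM or more, a minimum that 12 HoxB genes reached. Of these, 5 had a golden mean under 1 FPKM and reached the minimum through their greenish grey level. 8 of the 12 were more than 2-fold lower in golden skin at an unadjusted p under 0.05, and 0 were higher; over all genes tested, 1.51% were lower and 1.26% higher by this rule. Of the 8, 5 had a golden mean of at least 1 FPKM; both copies of hoxb6a and the chromosome 3 copy of hoxb8a had entered through greenish grey skin, the colour in which they are higher. The 8 were hoxb6a, hoxb7a, hoxb8a and hoxb9a, the trunk genes in the middle and posterior part of the cluster, each with both copies. None of the 12 had an adjusted p under 0.05 in this edgeR fit, the lowest being 0.897 for hoxb6a on chromosome 28. DESeq2, run as an alternative, gave 5 of the 12, with adjusted p-values of 2.21e-05 to 0.0372 (all genes tested, either direction: 0.776%). These were both copies of hoxb6a, the chromosome 28 copies of hoxb7a and hoxb9a, and the chromosome 3 copy of hoxb8a. Of the 12 genes, 8 had colours that did not overlap, all lower in golden skin. Over all genes tested, 5.08% were without overlap in this direction and 4.99% in the other. These 8 HoxB genes were the same as those past 2-fold. Both rules read the same values, so the lack of overlap adds no support to the calls. For the same reason all 8 had to be lower in golden skin in each of the 3 numbered pairs of libraries. The median log2 fold change of golden over greenish grey was -1.21 over the 12 HoxB genes and 0.03 over all genes tested. With the replicate number as a block, 9 genes passed by this rule (all genes lower: 2.63%), the added one being hoxb3a on chromosome 28. The lowest adjusted p of the 12 in edgeR with this block was 0.138, for hoxb7a on chromosome 28. Without greenish grey library 1 both copies of hoxb9a fell short of 2-fold (log2 fold change -0.96 on chromosome 3 and -0.94 on chromosome 28), which left 6 genes.

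hoxb7a was the most abundant HoxB gene in both colours. On chromosome 3 (LOC113044483, chr3:5172813-5177008) its FPKM was 2.37, 4.24 and 4.20 in golden and 10.2, 10.3 and 6.98 in greenish grey libraries. On chromosome 28 (LOC113046723, chr28:9274712-9278985) it was 2.91, 2.44 and 2.54 in golden and 11.5, 9.51 and 8.08 in greenish grey libraries. Every golden value of either copy lay below every greenish grey value, and the golden libraries of the chromosome 28 copy hardly varied. The log2 fold change was -1.26 (SE 0.32), or 2.39-fold lower, for the chromosome 3 copy and -1.73 (SE 0.36), or 3.31-fold lower, for the chromosome 28 copy.

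hoxb6a, its neighbour toward the head end of the cluster, had the most negative fold change of the HoxB genes in the fit on each chromosome, and both copies had entered the fit through their greenish grey level. The chromosome 28 copy (LOC113046729, chr28:9286079-9288903) had an FPKM of 0.387, 0.325 and 0.385 in golden and 1.47, 2.37 and 3.47 in greenish grey libraries. The chromosome 3 copy (LOC113044566, chr3:5184440-5186499) had 0.526, 0.486 and 0.359 in golden and 1.62, 2.17 and 1.61 in greenish grey libraries. The golden values were low and even, whereas the greenish grey values of the chromosome 28 copy spread widely. The log2 fold change was -2.50 (SE 0.43), or 5.67-fold lower, on chromosome 28 and -1.77 (SE 0.46), or 3.42-fold lower, on chromosome 3. The golden levels rest on 35 to 49 counts per library on chromosome 28 and on 27 to 30 on chromosome 3.

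hoxb8a followed the same direction with both copies. On chromosome 28 (LOC113046722, chr28:9270161-9273437) its FPKM was 1.48, 1.58 and 0.761 in golden and 4.53, 4.90 and 3.77 in greenish grey libraries. On chromosome 3 (LOC113044469, chr3:5166825-5171488) it was 0.513, 0.884 and 0.807 in golden and 1.42, 2.31 and 1.91 in greenish grey libraries. The copies were thus lowest in different golden libraries, number 3 on chromosome 28 and number 1 on chromosome 3. The log2 fold change was -1.59 (SE 0.45) on chromosome 28 and -1.22 (SE 0.29) on chromosome 3.

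hoxb9a had a narrow golden range on chromosome 3 (LOC113044465, chr3:5157684-5163662), with an FPKM of 1.28, 1.23 and 1.18 in golden and 3.58, 2.88 and 2.81 in greenish grey libraries. The chromosome 28 copy (LOC113046721, chr28:9258095-9265772) had 1.47, 1.61 and 2.10 in golden and 5.08, 3.66 and 3.99 in greenish grey libraries. Library 1 was the highest of the greenish grey libraries for both copies. The log2 fold change was -1.17 (SE 0.33) on chromosome 3 and -1.19 (SE 0.29) on chromosome 28.

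hoxb10a, the gene at the tail end of the cluster, did not differ between the colours by this rule. On chromosome 3 (LOC113044460, chr3:5149431-5154942) its FPKM was 1.34, 0.387 and 1.03 in golden and 1.21, 1.04 and 1.13 in greenish grey libraries. On chromosome 28 (LOC113046720, chr28:9252114-9257981) it was 1.35, 1.26 and 1.34 in golden and 1.60, 2.04 and 1.91 in greenish grey libraries. Golden library 2 stood apart on chromosome 3 but not on chromosome 28. The log2 fold change was -0.08 (SE 0.55) on chromosome 3, where it took either sign when single libraries were left out (-0.74 to 0.28), and -0.32 (SE 0.27) on chromosome 28. On chromosome 28 the FPKM values did not overlap between the colours, and so were lower in golden skin in all 3 numbered pairs. The scaled counts of this copy overlapped.

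Toward the head end, 2 more genes reached the minimum, both on chromosome 28. hoxb5a (LOC113046727, chr28:9290939-9292625) had an FPKM of 1.32, 1.61 and 0.351 in golden and 1.60, 1.13 and 1.02 in greenish grey libraries. Its colours overlapped, with golden library 2 the highest and golden library 3 the lowest of all, and the log2 fold change was 0.01 (SE 0.70). hoxb3a (LOC113046724, chr28:9329347-9332794), a gene of the hindbrain and neck region in vertebrates, had 0.900, 0.926 and 0.402 in golden and 2.18, 1.20 and 1.65 in greenish grey libraries. On the scale of the test its colours overlapped, although its FPKM values did not. The log2 fold change was -0.98 (SE 0.55) without and -1.07 (SE 0.42) with the replicate block.

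The fold changes of groups 10 to 6 can be read along both clusters. On chromosome 3 the log2 fold changes were -0.08, -1.17, -1.22, -1.26 and -1.77 for hoxb10a, hoxb9a, hoxb8a, hoxb7a and hoxb6a. On chromosome 28 they were -0.32, -1.19, -1.59, -1.73 and -2.50 for the same genes. The order of these values was the same on both chromosomes, but it was kept in only 2 of 6 fits that left out 1 library on chromosome 3 (lost without golden library 1 and without greenish grey library 1, 2 or 3) and in 5 of 6 on chromosome 28 (lost without golden library 2, with -1.71 for hoxb8a and -1.65 for hoxb7a). hoxb6a had the most negative value in all 6 fits on each chromosome. The genes hoxb6a on both chromosomes and hoxb8a and hoxb10a on chromosome 3 had entered the fit through their greenish grey level. The steps between hoxb9a, hoxb8a and hoxb7a were smaller than the larger SE of the neighbouring genes, differences between genes were not tested, and copies that share reads are not independent. At hoxb5a the difference was smaller again, at 0.01 on chromosome 28 and, with the lower minimum described next, -0.53 (SE 0.48) on chromosome 3.

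**Figure D2:**
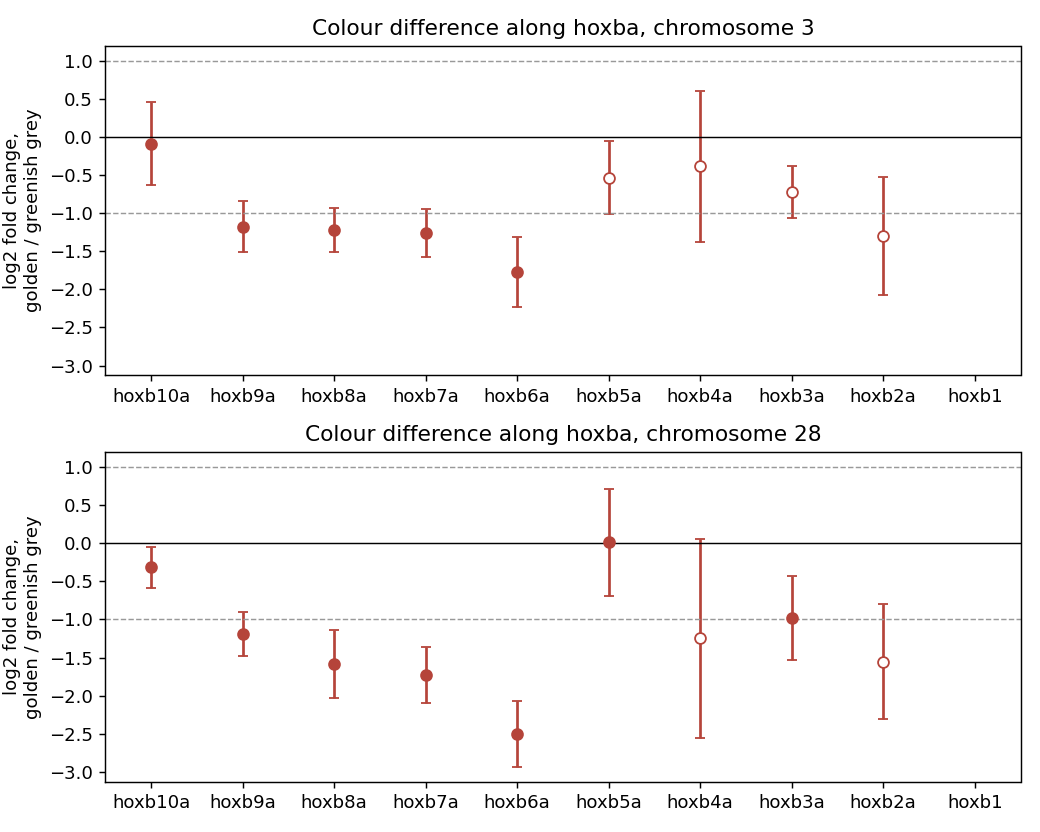
Log2 fold change of golden over greenish grey skin for each hoxba gene, from group 10 on the left to group 1 on the right, with bars of 1 SE; filled points are genes tested at a mean of at least 1 FPKM, open points come from the fit with the lower minimum, and hoxb1 was in neither fit. Dashed lines mark 2-fold. On chromosome 28 the points lie between -0.32 for hoxb10a and -2.50 for hoxb6a, with hoxb5a at 0.01.

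17 HoxB genes lay under the minimum of 1 FPKM, 14 of them with a count, and their highest value in any library was 1.20 FPKM. With edgeR's own lower minimum (filterByExpr, 40819 genes) 20 HoxB genes entered the fit. 9 of these 20 were more than 2-fold lower at an unadjusted p under 0.05 (all genes: 1.7% lower and 1.37% higher), and 0 were higher. Of the genes of the head end that entered, hoxb2a and hoxb4a had wide errors. hoxb2a had a log2 fold change of -1.30 (SE 0.78) on chromosome 3 and -1.56 (SE 0.75) on chromosome 28, and hoxb4a had -0.38 (SE 0.99) and -1.25 (SE 1.31). hoxb3a on chromosome 3 had -0.72 (SE 0.34). The 6 genes with a count that did not enter, the 2 rows each of hoxb1, hoxb6b and hoxb8b, had at most 32 counts in a library. Over all 26 HoxB genes with a count, the mean FPKM was lower in golden skin in 24 and higher in 2 (hoxb8b on chromosome 12 and hoxb6b on chromosome 37), where 59.5% of all 51428 rows with a count were lower. The genes in these counts were not chosen independently of the colour contrast, and nothing is read from them.

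In the hoxbb clusters, hoxb1b, an early gene of the hindbrain in zebrafish, was the main gene expressed. The chromosome 12 copy (LOC113111515, chr12:3659776-3678251) had 0 counts in each of the 3 golden libraries and 99, 132 and 98 counts in greenish grey libraries 1 to 3, or 0.438, 0.476 and 0.340 FPKM. No golden library held a single read of this row, while each greenish grey library held many. Against a floor of 3 counts per library its level in golden skin was at least 31.4-fold lower. It lay under the minimum of the main comparison, and in the fit with the lower minimum edgeR's quasi-likelihood test gave an adjusted p of 0.790. The chromosome 37 copy (LOC113056179, chr37:10960755-10979428) was present in both colours, with 0.437, 0.301 and 0.384 FPKM in golden and 1.09, 0.725 and 0.545 FPKM in greenish grey libraries. Its log2 fold change was -0.89 (SE 0.46), and its colours overlapped on the scale of the test. hoxb6b, inside the model of hoxb1b on chromosome 12, had 0 counts in golden libraries and 0, 29 and 31 in greenish grey libraries 1 to 3, so that its colours overlapped at 0. hoxb8b held at most 12 counts in any library.

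**Figure D3:**
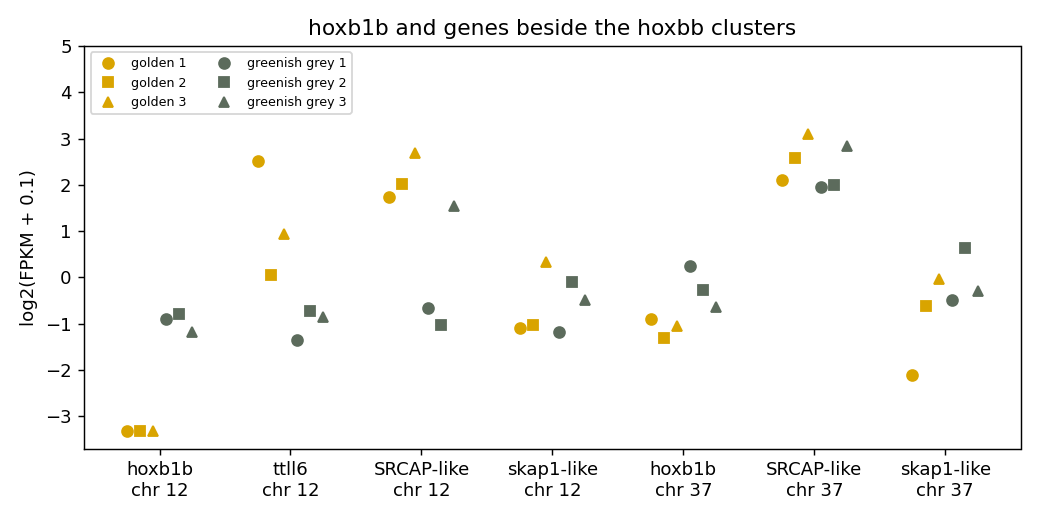
Level as log2(FPKM + 0.1) in each library of hoxb1b on chromosomes 12 and 37 and of the ttll6, SRCAP-like and skap1-like genes beside the hoxbb clusters. Golden points of hoxb1b on chromosome 12 lie at the value of 0 FPKM, while ttll6 and the SRCAP-like gene on the same chromosome are higher in golden skin.

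To see whether the genes next to the clusters moved with them, 21 rows were read by position, the nearest 2 on either side of each cluster and of the lone hoxb5b row, and 1 row between members. Of these, 11 were tested, 0 were more than 2-fold lower and 2 were more than 2-fold higher in golden skin at an unadjusted p under 0.05. Both stood beside hoxb8b on chromosome 12. ttll6 (chr12:3685716-3693728), which encodes a tubulin polyglutamylase, had 5.57, 0.934 and 1.82 FPKM in golden and 0.290, 0.509 and 0.454 FPKM in greenish grey libraries. Its golden values were all higher, with library 1 far above the others, and the log2 fold change was 3.07 (SE 0.82). Without golden library 1 it was 1.68, the lowest value when single libraries were left out. An SRCAP-like gene (LOC113111520, chr12:3693897-3725143), of a chromatin remodelling helicase, had 3.21, 3.95 and 6.30 FPKM in golden and 0.536, 0.388 and 2.83 FPKM in greenish grey libraries. Its log2 fold change was 2.01 (SE 0.73), and it passed in only 2 of the 6 fits that left out 1 library: in those without golden library 2 or 3 or without greenish grey library 1 or 2 it did not pass, at an unadjusted p of up to 0.0846 in edgeR's test.

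The duplicate of the SRCAP-like gene beside the chromosome 37 cluster (LOC113056174) had a log2 fold change of 0.46 (SE 0.31). The ttll6-like row there was annotated as a pseudogene and had no count. Beside the hoxba clusters, the cbx1-like genes, which encode chromobox proteins, had log2 fold changes of 0.01 (SE 0.33) on chromosome 3 and 0.43 (SE 0.24) on chromosome 28. Over all tested neighbours but ttll6 and the SRCAP-like gene of chromosome 12, the log2 fold change lay between -0.08 and 0.74. The row between members was a long non-coding RNA on the minus strand of chromosome 3 (LOC113044572, chr3:5182028-5200785), which overlaps hoxb6a, hoxb5a and the long model of hoxb3a. It had 0, 0.0972 and 0.131 FPKM in golden and 0.277, 0.339 and 0.332 FPKM in greenish grey libraries, all golden values being lower. Without stated use of strand its reads cannot be told apart from those of the genes it overlaps.

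The duplicated copies were then compared with each other, a question that does not use the colours. For 13 labels with a count, the log2 ratio of FPKM + 0.1 of the copy on chromosome 28 or 37 over that on chromosome 3 or 12 was formed in each library and tested with an exact sign-flip test over the 6 libraries, two-sided. The smallest p this test allows is 0.03125, and after adjustment over the 13 pairs none was under 0.05. The test treats the 6 libraries as independent, but same-numbered libraries deviated together, so its p-values may be too small. hoxb5a (log2 ratio 1.41 ± 0.61, SD, n = 6), hoxb3a (1.08 ± 0.42), hoxb10a (0.64 ± 0.52) and hoxb9a (0.44 ± 0.20) were higher on chromosome 28 in 6 of 6 libraries, each at that smallest exact p and an adjusted p of 0.0677. hoxb2a was lower on chromosome 28 in 6 of 6 libraries (-0.86 ± 0.59), also with an adjusted p of 0.0677 in the exact test. In golden library 3 its copies were nearly equal, at 0.0839 FPKM on chromosome 28 and 0.0841 FPKM on chromosome 3. With counts in place of FPKM the chromosome 28 copy of hoxb2a was higher in 1 library, and the adjusted p was 0.203 in the exact test. With counts in place of FPKM the ratio changed sign for hoxb3a (-0.71) and hoxb5a (-0.11), whose copies have gene models of different length.

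In FPKM, the copies of hoxb7a and hoxb6a differed by less than their spread over the libraries. The log2 ratio of hoxb7a was -0.15 ± 0.47 (SD, n = 6) and that of hoxb6a 0.05 ± 0.55 (SD, n = 6), each with 3 libraries of either sign. With counts in place of FPKM the ratio of hoxb7a was -0.17. That of hoxb6a was then 0.81, higher on chromosome 28 in 6 of 6 libraries (adjusted p = 0.0813 in the exact test). hoxb8a was higher on chromosome 28 in 5 of 6 libraries (0.94 ± 0.58, SD, n = 6, adjusted p = 0.116 in the exact test). For hoxb7a the libraries went both ways: the log2 ratio was 0.29, -0.77 and -0.70 in golden and 0.18, -0.11 and 0.21 in greenish grey libraries 1 to 3.

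hoxb1b had a ratio of 1.49 ± 0.86 (SD, n = 6) and was higher on chromosome 37 in 6 of 6 libraries (adjusted p = 0.0677 in the exact test). It was the only one of the 13 pairs whose ratio did not overlap between the colours. The golden libraries had 2.42, 2.01 and 2.28 and the greenish grey libraries 1.14, 0.52 and 0.55. In golden libraries this ratio is set by the 0.1 FPKM added to a copy at 0, and with 1 FPKM added the mean over all libraries was 0.39.

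**Figure D4:**
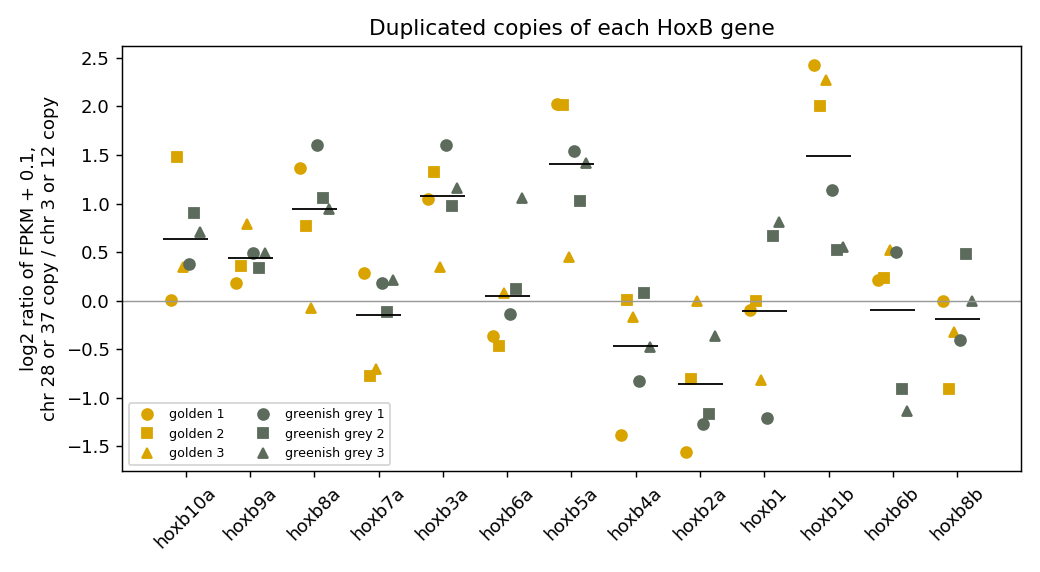
Log2 ratio of FPKM + 0.1 between the duplicated copies of each HoxB gene in each library, chromosome 28 over 3 for the hoxba genes and 37 over 12 for the hoxbb genes; lines are means over 6 libraries. Points above 0 mean a higher level on chromosome 28 or 37. All 6 points of hoxb5a, hoxb3a, hoxb9a, hoxb10a and hoxb1b lie above 0. Those of hoxb2a lie below it, with golden library 3 at only -0.0017.

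The Hox genes of the other clusters served as a comparison. Of 44 HoxA, HoxC and HoxD rows of groups 1 to 10, 22 were tested, 1 was more than 2-fold lower and 2 were more than 2-fold higher in golden skin at an unadjusted p under 0.05, and their median log2 fold change was -0.16. hoxa9b (LOC113116263) was lower (log2 fold change -1.17, SE 0.41), with 1.34, 0.861 and 1.16 FPKM in golden and 3.22, 2.75 and 2.58 FPKM in greenish grey libraries. Both hoxc10a copies were higher, at 1.05 (SE 0.43) for LOC113041569 and 1.06 (SE 0.40) for LOC113065709, and their colours overlapped. With the replicate block neither reached 2-fold (0.95 and 0.97). These 3 calls were not firm: without single libraries hoxa9b passed in 3 of 6 fits and the hoxc10a copies in 1 and 2 of 6. Golden libraries 1 and 2 and greenish grey libraries 2 and 3 each ended the call of both hoxc10a copies, greenish grey library 1 also that of LOC113041569, and golden libraries 2 and 3 and greenish grey library 1 that of hoxa9b, with log2 fold changes down to 0.71 and 0.77 for the hoxc10a copies and up to -0.99 for hoxa9b. The summed FPKM of HoxA, HoxC and HoxD genes together was 72.4 to 94.7 in golden and 84.3 to 103 in greenish grey libraries. These ranges overlapped, but those of the HoxC sum alone did not, at 21.3 to 23.9 in golden and 24.4 to 27.8 in greenish grey libraries. The HoxA sum overlapped, at 31.2 to 59.3 in golden and 39.4 to 60.6 in greenish grey libraries. It included the hoxa3-like row (LOC113095263), whose FPKM was lowest in library 1 and highest in library 3 of each colour. The HoxA sum had the same order over the libraries, so much of its spread within each colour came with this row. The HoxD sum also overlapped, at 14.1 to 17.3 and 14.5 to 20.6. A summed level without overlap was thus shared by the HoxB and HoxC genes. With the lower minimum of filterByExpr, 37 of the 44 rows entered, 3 were lower and 2 higher by the same rule, with a median of -0.26 (all genes: 1.7% lower and 1.37% higher). HoxA genes then held 3 lower and 0 higher of 18 (median -0.52). HoxC genes held 0 lower and 2 higher of 11 (median -0.16), and HoxD genes 0 of 8 (median -0.23). Whether the HoxB genes differ from the other clusters in their colour difference was not tested.

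Hox proteins bind DNA together with cofactors of the PBX, MEIS and PKNOX families. Of 35 cofactor rows, 22 were tested, 1 was lower and 0 were higher by the same rule, with a median log2 fold change of -0.07. A meis1-like gene (LOC113043994) had 0.596, 1.15 and 1.77 FPKM in golden and 3.60, 2.39 and 2.77 FPKM in greenish grey libraries, without overlap. Its log2 fold change was -1.28 (SE 0.39), and -0.99 without greenish grey library 1, short of 2-fold.

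Genes known to set Hox expression were listed (retinoic acid receptors and enzymes, CDX factors, Polycomb and Trithorax proteins, KDM6A and KDM6B demethylases, CTCF). No CDX row was among those tested. Of the 71 rows, 47 were tested, 0 were lower and 2 were higher, with a median log2 fold change of 0.08. Both were receptors of retinoic acid, a signal that activates Hox genes in the embryo. A rara-like gene (LOC113045332), on the same chromosome as the first hoxba cluster, had 31.4, 35.5 and 25.3 FPKM in golden and 18.8, 13.0 and 15.3 FPKM in greenish grey libraries, a log2 fold change of 1.13 (SE 0.39). A rarg-like gene (LOC113069224) had 3.85, 6.01 and 3.88 FPKM in golden and 2.11, 1.92 and 2.97 FPKM in greenish grey libraries, a log2 fold change of 1.13 (SE 0.32). The golden values of both genes lay above all greenish grey ones. The other tested retinoic acid receptor rows had log2 fold changes of -0.56 to 0.34. Those of the retinoic acid enzymes, retinal dehydrogenase 2 and cytochrome P450 26B1, were all negative, at -0.80 to -0.32. The rara-like gene passed in 2 of 6 fits that left out 1 library, being lost without golden library 1 or 2 or greenish grey library 2 or 3 (lowest log2 fold change 0.96), and the rarg-like gene in 4 of 6, being lost without golden or greenish grey library 2 (lowest 0.92).

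Markers of cell types that skin samples can hold differed between the colours in part. Of 42 tested dermal fibroblast genes, 37 had a negative log2 fold change, with a median of -0.72. Over all 26421 genes tested, 12355 values were negative and 14066 positive. By the same rule 5 fibroblast genes were more than 2-fold lower and 1 was more than 2-fold higher. With the replicate block 10 were lower and 1 was higher, against 695 lower and 640 higher over all 26421 genes. The fibroblast genes summed to 1406, 782 and 603 FPKM in golden and 3238, 1381 and 976 FPKM in greenish grey libraries. The colours overlapped, and library 1 was the highest of each colour. Per 1000 FPKM of fibroblast genes, the HoxB sum was 12.5, 23.8 and 27.9 in golden and 15.7, 33.9 and 42.5 in greenish grey libraries. Between libraries of the same number the greenish grey value was 1.26, 1.43 and 1.52 times the golden one on this scale, against 2.91, 2.52 and 2.46 times for the HoxB sum itself, and the colours overlapped. The part of fibroblast content in the HoxB difference was not tested further.

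Melanophore genes, of the dark pigment cells, had a summed level of 11.1 to 16.0 FPKM in golden and 49.5 to 117 FPKM in greenish grey libraries, and 11 of 12 tested were more than 2-fold lower. Endothelium genes summed to 21.1 to 31.7 FPKM in golden and 38.0 to 53.1 FPKM in greenish grey libraries, with 1 of 9 tested more than 2-fold lower. These lists did not overlap between the colours. Skeletal muscle genes summed to between 18842 and 67145 FPKM in golden and between 9683 and 42096 FPKM in greenish grey libraries. Of these genes, 84 of 90 tested had a positive log2 fold change (all genes tested: 14066 of 26421), with a median of 1.22. By the same rule 10 of the 90 were more than 2-fold higher and 1 lower. With the replicate block 30 were higher and 2 lower (all genes: 640 higher and 695 lower of 26421). Epidermis (2 of 53 lower, 1 higher), erythrocyte (0 of 12), leukocyte (0 of 9), Schwann cell (0 of 17) and neuron (0 of 2) genes held few or no calls by this rule; with the replicate block epidermis had 4 lower and 6 higher and neuron 1 lower, while the other 3 lists still had 0. Of the neuron rows, 11 of 35 had no count in any library. The part of these cell types in the HoxB difference was not tested.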

How the data were processed

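Per gene row and library, the authors deposited an unnormalized count and an FPKM value, which they scaled by transcript length and library size; its placeholder for a count of 0 was set to 0. The aligner, counter, filters and use of strand were not given in the sources used here, and the processing notes list a mouse build although the rows carry goldfish RefSeq IDs, which all 29 HoxB rows matched with the same start. The HoxB rows and all gene lists were chosen with earlier results of these data known.

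Counts were tested with edgeR 4.0.16 (R 4.3.3; two-sided quasi-likelihood test after TMM scaling, with all rows in the library size) on 26421 genes that averaged 1 FPKM or more, without further terms, with Benjamini-Hochberg adjustment over all of them. As in the study, genes were counted by a change of over 2-fold and an unadjusted p under 0.05. Overlap of colours was judged on TMM-scaled counts. SE is that of the log2 fold change, computed for edgeR as its absolute value over the square root of the quasi-likelihood F statistic. Alternatives were a replicate block, filterByExpr, no minimum, limma 3.58.1 on log2(FPKM + 1) and log2(FPKM + 0.1), DESeq2 1.42.0 and its size factors, summed copies and leaving out each library. Of these fits, only edgeR without further terms was tested on simulated data, which were drawn with independent libraries. Total counts per library limit the precision; floors of 3 counts cover counting error only, as the reads carried no molecular identifiers.

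HoxB genes that averaged 1 FPKM or more are given by library and the others by range. Other genes are named if they belong to the Hox, cofactor or regulator lists and passed the 2-fold rule, or stand next to a cluster. A hoxa3-like row is described and the other retinoic acid genes are given beside them. Same-numbered golden and greenish grey libraries deviated together from their group means (correlations 0.656, 0.258 and 0.682, against at most 0.0644 otherwise). The deviations of the 3 libraries of a colour sum to 0, which in itself lowers the correlations between different numbers. The numbers may thus pair the libraries, but this rests on the values and numbering alone, since the labels do not say what a number marks.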

Additional observations from a re-analysis of the deposited data

How the results depend on the processing

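The 8 HoxB genes past 2-fold stayed within 1.5 times that number in 12 of 14 alternatives and became 4 with limma on log2(FPKM + 1), which compresses low values, and 4 with copies summed, where by construction each label counts once. They numbered 6 to 8 when single libraries were left out. With the replicate number as a block they were 9, with a median log2 fold change of -1.20. The block added hoxb3a on chromosome 28 (LOC113046724, -1.07) and changed no other HoxB call. The count of higher genes stayed at 0. Under limma with a pseudocount of 1, both hoxb9a copies (-0.87 on chromosome 3, -0.94 on chromosome 28) and the chromosome 3 copies of hoxb8a (-0.73) and hoxb6a (-0.94) fell short of 2-fold.

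The sign of hoxb5a on chromosome 28 changed with the replicate block (-0.24), limma with a pseudocount of 1 (-0.15) or 0.1 (-0.36), copies summed (-0.27) and without single libraries (-0.29 to 0.47). That of hoxb10a on chromosome 3 changed without single libraries (-0.74 to 0.28). The copy ratio reversed with counts for hoxb3a (-0.71), hoxb5a (-0.11) and hoxb6b (0.68), in golden libraries alone for hoxb6a (-0.25) and hoxb6b (0.32), in greenish grey libraries alone for hoxb7a (0.092), hoxb1 (0.092) and hoxb8b (0.025), and without single libraries for hoxb1 (-0.29 to 0.11), hoxb6b (-0.22 to 0.11) and hoxb6a (-0.15 to 0.15). The cause was not tested. Of the HoxB genes with a count, 6 stayed under the lower minimum of edgeR, with at most 32 counts in a library, and had no fold change fitted.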
